A study of Drosophila melanogaster with 4 samples.

Results

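The genes described here are 10 components of the Notch pathway of *Drosophila melanogaster*: the receptor gene N, the ligand genes Dl and Ser, and neur, fng, kuz, nct, Su(H), H and mam, which act on the ligand, the receptor or its target genes. They were chosen by name, by matching FlyBase symbols to the gene identifiers of the count tables, and all 10 were found among 17409 gene rows. In the reference, Dl and nct are listed as Delta and Nct. Poly(A) RNA was sequenced from seminal vesicles with the adjoining testis terminal epithelium and from testes, both from adult Oregon-R-modENCODE males aged 4 to 5 days. Each tissue had 2 libraries, from dissections on 2 consecutive days. Both tissues came from the same strain kept under constant light, so no genotype or treatment differed between them, and the labels do not give the number of males per library. The comparison asks which of these genes are transcribed to a different level in the sperm-storing tissue than in the sperm-producing tissue.

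Notch is a receptor cut in steps. A membrane-bound ligand on one cell, Delta or Serrate, binds Notch on its neighbour, and endocytosis of the ligand exposes a site that a metalloprotease such as Kuzbanian cuts. The gamma-secretase complex, of which Nicastrin is a subunit, then releases the intracellular domain, which joins the DNA-binding protein Suppressor of Hairless and the coactivator Mastermind at target genes, most famously those of the Enhancer of split complex. In the male gonad the pathway is known for its part in specifying the hub, the somatic niche at the testis tip.

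Gene counts summed to 13385256 and 11120405 in the seminal vesicle libraries and to 14088989 and 15528462 in the testis libraries. All 8 germline markers were lower in seminal vesicle, with summed levels of 384 and 733 CPM there against 5433 and 5860 CPM in testis, and none was at 0 in both libraries of a tissue. Of 7 muscle markers 6 were higher in seminal vesicle, with sums of 3967 and 2926 CPM against 172 and 200.1 CPM in testis. Markers of somatic cyst and hub cells went both ways, 3 of 8 higher and 4 lower in seminal vesicle, with sums of 673 and 743 CPM against 115 and 121 CPM. The seminal vesicle sums were mostly Fas3, at 466 and 510 CPM, and hh, at 132 and 160 CPM. Called higher in seminal vesicle were 3 of 6 hemocyte, 3 of 6 fat body, 4 of 5 tracheal and 6 of 6 ejaculatory duct and bulb markers, and none of these lists held a gene called lower. Their sums were 285 and 200 CPM in seminal vesicle and 14.7 and 16.7 CPM in testis for hemocytes, 539 and 803 CPM against 119 and 127 CPM for fat body, 61.1 and 61.3 CPM against 18.9 and 19.6 CPM for trachea, and 1439 and 1159 CPM against 43.2 and 41 CPM for ejaculatory duct and bulb. Of the hemocyte sums in seminal vesicle, Pxn alone gave 247 and 161 CPM. The hemocyte gene He and the fat body gene Fbp1 were at 0 in all 4 libraries. Of the 6 accessory gland markers 3 were higher and 1 lower, and they summed to 44.1 and 19.2 CPM in seminal vesicle and 24.4 and 21.7 CPM in testis. Neuronal markers also went both ways, with 2 of 5 higher, 1 lower and 2 not tested. They summed to 32.5 and 45.3 CPM in seminal vesicle and 22.8 and 25 CPM in testis. The neuronal gene Vglut was at 0 in both seminal vesicle libraries. The part of any of these cell types in the values below was not tested.

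The pathway did not move as a block. Of the 10 genes, fng, kuz, nct and mam rose in seminal vesicle, Dl, Ser, neur and Su(H) fell, and N and H did not pass the test. All 10 passed the filter on low counts. The share called among all 11737 genes tested was 42.1% higher and 44.5% lower in seminal vesicle, so 4 of 10 in each direction is near the background, as are 8 of 10 in either direction against 86.6%. The median log2 fold change of the 10 genes was 0.01, beside -0.11 for all genes. The libraries of the tissues did not overlap for 9 of the 10 genes, against 94.7% of all genes tested (46% higher and 48.6% lower in seminal vesicle). By a test against a 2-fold change, fng, kuz, nct and mam were higher and Ser was lower by more than that, where the background was 33.5% higher and 36.7% lower. Levels are TMM-normalised CPM, that is, reads of a gene scaled to a common library size, with n of 2 libraries per tissue. A positive log2 fold change means a higher level in seminal vesicle, its error is a standard error (SE), and adjusted p-values come from edgeR's quasi-likelihood test with Benjamini-Hochberg adjustment over all genes. In these bulk samples fewer cells of a type and less RNA per cell cannot be told apart.

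**Figure D1:**
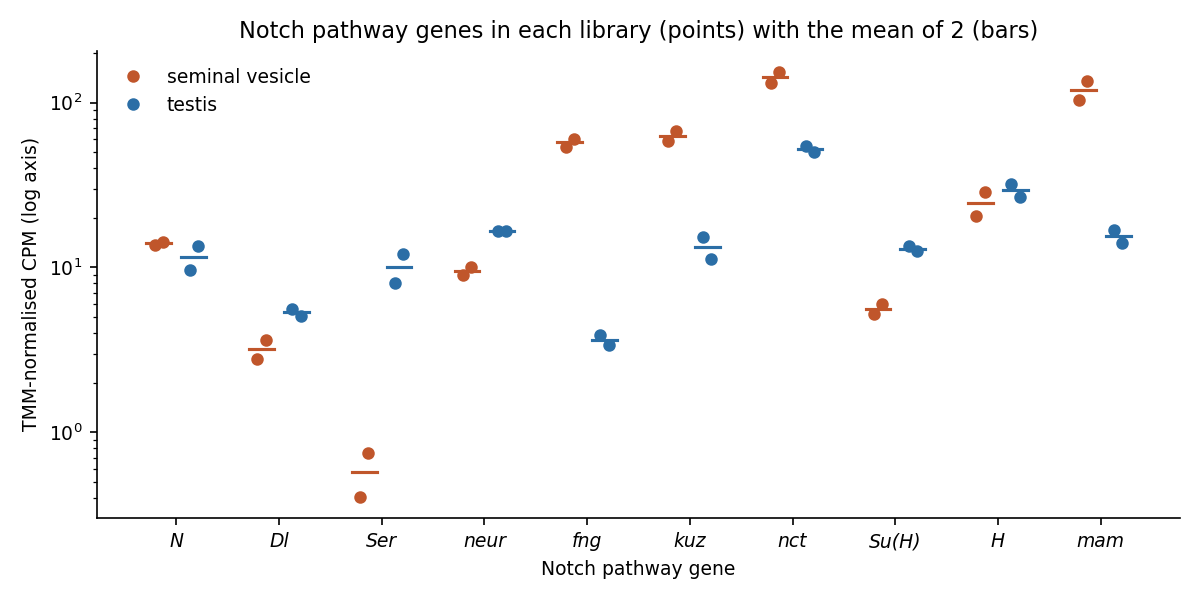
TMM-normalised CPM (log axis) of the 10 Notch pathway genes in each library, seminal vesicle in orange and testis in blue, with points for libraries and bars for the mean of 2. Ser is lowest in seminal vesicle, at 0.408 and 0.75 CPM, and nct is highest there, at 131 and 153 CPM.

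The receptor gene N (X, 3134870 to 3172221, plus strand of the Release 6 assembly, 10150 bp of exon) was present at a similar level in both tissues. It had 13.7 and 14.4 CPM in seminal vesicle and 9.64 and 13.4 CPM in testis. Both seminal vesicle libraries lay above both testis libraries, but by little, and one testis library nearly reached them. N had a log2 fold change of 0.28 ± 0.21 (SE) with adjusted p = 0.254. Its direction turned with library size only, to -0.09, and with scaling to spike-in RNAs, to -0.76 with adjusted p = 0.036.

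Both ligand genes fell in seminal vesicle, Ser by far more than Dl. Serrate (Ser; 3R, 27172090 to 27194267, minus strand) had 0.408 and 0.75 CPM in seminal vesicle and 8.08 and 12 CPM in testis. The seminal vesicle values rest on 5 and 7 reads, whose exact 95% Poisson intervals are 0.132 to 0.952 CPM and 0.301 to 1.54 CPM, against 134 and 206 reads in testis. The highest of these bounds is well under the lower testis library. The log2 fold change was -4.15 ± 0.41, which is 17.7-fold lower, with adjusted p = 0.000229. Its mean level in seminal vesicle was 5.76% of that in testis. For the 8 germline markers the median of this share was 7.49% in seminal vesicle library 1 and 4.63% in library 2. By the mean of both libraries, single germline markers ran from 0.315% for aly to 21.5% for Mst84Da. The part of germline cells in the Ser value was not tested. Delta (Dl; 3R, 19302731 to 19326217, minus strand) had 2.77 and 3.64 CPM in seminal vesicle and 5.61 and 5.07 CPM in testis. The tissues did not overlap, but the gap was small beside that of Ser. This gave a log2 fold change of -0.75 ± 0.26 with adjusted p = 0.032. The Dl call was lost with DESeq2 (adjusted p = 0.102), without seminal vesicle replicate 1 (0.098) and without testis replicate 1 or 2 (0.263 and 0.192).

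The makeup of the ligand reads therefore differed between the tissues. Dl gave 34 of 39 and 34 of 41 ligand reads in the seminal vesicle libraries, or 87.2% and 82.9%, with exact binomial intervals of 72.6% to 95.7% and 67.9% to 92.8%. In the testis libraries Dl gave 41% and 29.7% of the ligand reads, with intervals of 34.5% to 47.7% and 24.5% to 35.3%. Dl was thus the major ligand transcript by reads in both seminal vesicle libraries, and Ser in both testis libraries. Per kilobase of exon, the ratio of Dl to Ser was 7.51 and 5.37 in seminal vesicle and 0.767 and 0.467 in testis. The ratio of N to the sum of both ligands was 2.27 and 1.73 in seminal vesicle and 0.388 and 0.437 in testis. The binomial intervals hold counting error within a library alone and leave out the spread between libraries. PCR copies were not told apart from separate molecules, so the intervals can be too narrow even for counting error. With 2 libraries against 2, a two-sided exact permutation test cannot give a p under 0.333, so these ratios are descriptions. Of 9 such ratios computed, 7 did not overlap between tissues, each with exact permutation p = 0.333 (Benjamini-Hochberg adjusted 0.429). Among single genes tested, 94.7% did not overlap. The ratios were chosen with earlier results of these data known, so their count is a description too.

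**Figure D2:**
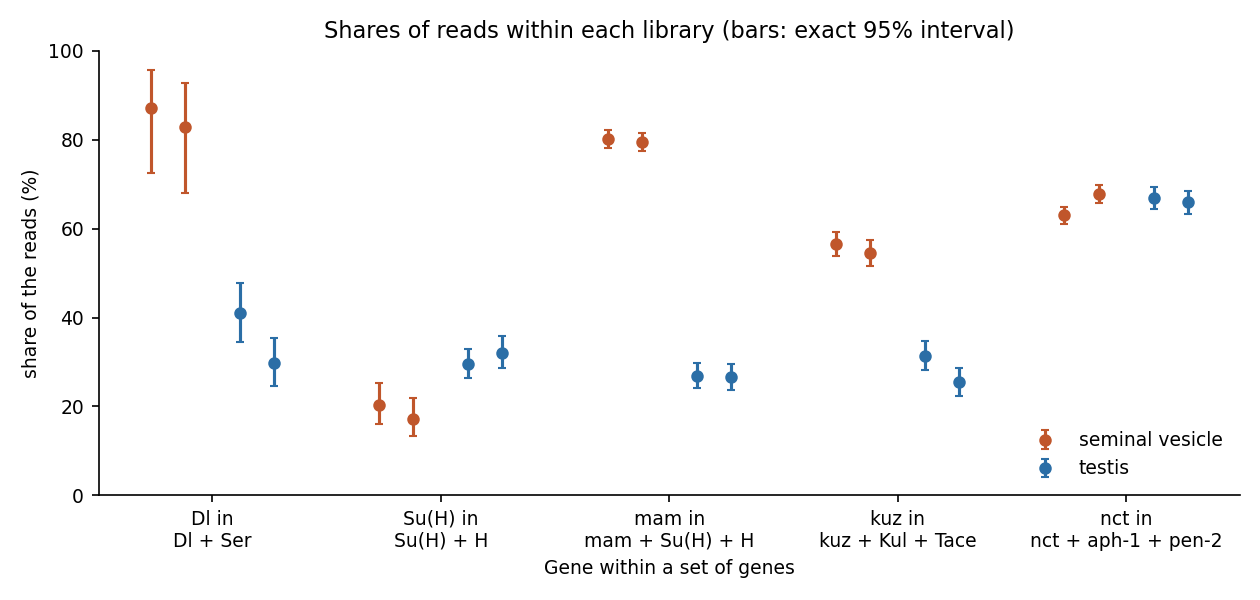
Share of reads (%) that 1 gene takes within a small set of genes, in each library, seminal vesicle in orange and testis in blue, with exact 95% binomial intervals as bars. Dl takes 82.9% or more of the ligand reads in seminal vesicle and 41% or less in testis, while the share of nct among 3 gamma-secretase genes stays between 63% and 67.7% in all 4 libraries.

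With all 4 libraries in the fit, ligand endocytosis genes mostly fell in seminal vesicle. Neuralized (neur; 3R, 9020348 to 9039471, minus strand), a ubiquitin ligase that drives endocytosis of Delta, had 9.05 and 10.1 CPM in seminal vesicle and 16.6 CPM in each testis library. The testis libraries were nearly equal and both lay above the seminal vesicle ones. The log2 fold change was -0.80 ± 0.17 with adjusted p = 0.0044, and adjusted p was 0.0863 and 0.0949 without testis replicate 1 and 2. Exons of an antisense RNA gene, asRNA:CR31429, cover 38.8% of the exon length of neur on the other strand. That antisense gene had 0.489 and 1.18 CPM in seminal vesicle and 46.4 and 67.9 CPM in testis. The counts behave as strand-specific, but the strand setting is not stated, so the neur values are uncertain to that extent. Of 5 other genes of this role, 4 were lower in seminal vesicle and 1 higher, where 44.5% of all genes tested were lower and 86.6% were called in either direction. Their median log2 fold change was -0.81, beside -0.11 for all genes. The ligase gene mib1, which acts on the ligands alongside neur, was higher, at 101 ± 11.2 CPM in seminal vesicle and 32.2 ± 0.38 CPM in testis (SD, n = 2; adjusted p = 0.000404, and 0.115 with spike-in scaling). Its paralog mib2 was lower, at 182 ± 82.3 CPM against 705 ± 52.3 CPM in testis (adjusted p = 0.00403). The epsin gene lqf was also lower, at 242 ± 67.2 CPM against 426 ± 6.48 CPM (adjusted p = 0.0394, and 0.114 and 0.129 without testis replicate 1 and 2). The genes aux and shi, named after their values were seen, were lower too. For aux the levels were 47.4 ± 9.86 CPM in seminal vesicle and 74.7 ± 8.21 CPM in testis (adjusted p = 0.0324). For shi they were 120 ± 22.6 CPM against 221 ± 12 CPM (adjusted p = 0.0176). Without testis replicate 1 or 2, neur, lqf, aux and shi were no longer called lower, while mib2 still was. Of the reads of mib1, mib2 and neur together, mib1 gave 41.3% and 30.4% in seminal vesicle and 4.52% and 4.04% in testis.

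Genes tied to glycosylation of the receptor, including general ones that make or carry GDP-fucose, mostly rose in seminal vesicle. Of the 10 genes that are the subject here, fng had the largest rise. Fringe (fng; 3L, 20925891 to 20949512, minus strand), the glycosyltransferase that extends O-fucose on Notch and so shifts its response from Serrate to Delta, had 54.1 and 60.5 CPM in seminal vesicle and 3.92 and 3.38 CPM in testis. Every seminal vesicle library was more than 10 times every testis library. Its log2 fold change was 3.97 ± 0.20, or 15.7-fold, with adjusted p = 3.2e-05. Of its exon length 1.12% lies opposite CG10589, which went the other way. Of 7 other genes of this role, 5 were higher, 1 lower and 1 not called, where 42.1% of all genes tested were higher, and their median log2 fold change was 1.72. Gmd, which makes the precursor of GDP-fucose, stood at 58.8 ± 2.81 CPM in seminal vesicle and 7.3 ± 1.18 CPM in testis (8.05-fold, adjusted p = 5.2e-05). Gfr, a GDP-fucose transporter of the Golgi, stood at 14.9 ± 2.53 CPM against 1.09 ± 0.184 CPM in testis (13.5-fold, adjusted p = 6.5e-05). Efr, a GDP-fucose transporter of the endoplasmic reticulum, passed narrowly at 35.3 ± 4.27 CPM against 24.5 ± 4.16 CPM (adjusted p = 0.0443). Its call was lost with the replicate block (adjusted p = 0.0536), DESeq2 size factors (0.0636), no filter (0.074), DESeq2 (0.211), library size only (0.475) and without testis replicate 1 or 2 (0.204 and 0.0503), and with spike-in scaling its log2 fold change was -0.52. The gene that was lower is Gmer, named after its value was seen, which acts with Gmd in making GDP-fucose. Gmer stood at 8.6 ± 0.647 CPM against 16.5 ± 0.597 CPM (adjusted p = 0.00255). It was no longer called lower without testis replicate 1 or 2.

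Of kuz and 2 related metalloprotease genes, 2 rose in seminal vesicle and 1 fell. Kuzbanian (kuz; 2L, 13550139 to 13639411, plus strand), which makes the ligand-dependent cut of Notch, had 58.4 and 67.7 CPM in seminal vesicle and 15.3 and 11.3 CPM in testis. The tissues were well apart. For kuz the log2 fold change was 2.25 ± 0.22, or 4.75-fold, with adjusted p = 0.000196. The related kul stood at 48.5 ± 7.18 CPM in seminal vesicle and 11.1 ± 1.14 CPM in testis (4.37-fold, adjusted p = 0.000149). Tace, another protease of the same class, went the other way, at 2.27 ± 1.02 CPM against 22.2 ± 0.903 CPM in testis, 10-fold lower (adjusted p = 0.000158). As a share of the reads of these 3 genes, kuz gave 56.5% and 54.5% in seminal vesicle and 31.4% and 25.4% in testis, and Tace gave 1.5% and 2.41% in seminal vesicle and 44.2% and 51.4% in testis. Thus kuz led these 3 genes by reads in seminal vesicle and Tace did in testis, which does not measure cutting of the receptor. Of 5 other genes of this role, proteases and tetraspanins together, 3 were higher in seminal vesicle and 2 lower, against 42.1% and 44.5% of all genes tested. The tetraspanins of the group that partners this class of protease went both ways: Tsp3A stood at 8.29 ± 0.539 CPM in seminal vesicle and 1.72 ± 0.208 CPM in testis (4.79-fold, adjusted p = 0.000275). Tsp86D stood at 27 ± 0.393 CPM against 15.8 ± 0.623 CPM (adjusted p = 0.00331). The Tsp86D call was lost with library size only (adjusted p = 0.071) and without testis replicate 2 (0.0502), and its log2 fold change was -0.29 with spike-in scaling. Tsp26A, named after its value was seen, was lower, at 5.99 ± 1.67 CPM against 11.1 ± 1.92 CPM in testis (adjusted p = 0.0195). Without testis replicate 1 or 2, Tsp26A was no longer called lower.

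All 3 gamma-secretase genes measured rose in seminal vesicle, where 42.1% of all genes tested were higher. So few genes do not show that the complex moved as a unit. Nicastrin (nct; 3R, 24851601 to 24854869, plus strand), a large glycoprotein subunit, had 131 and 153 CPM in seminal vesicle and 54.7 and 50 CPM in testis. The lower seminal vesicle library was more than double the higher testis library. The log2 fold change was 1.44 ± 0.22, or 2.71-fold, with adjusted p = 0.00116, and with spike-in scaling it was 0.37 (adjusted p = 0.373). Exons of HDAC11 lie opposite 12.9% of its exon length, and HDAC11 had 10 to 50 reads per library. The other subunit genes measured changed by a like amount: aph-1 stood at 59.8 ± 0.154 CPM in seminal vesicle and 20.4 ± 0.442 CPM in testis (2.93-fold, adjusted p = 0.000253), and pen-2 at 15.1 ± 2.47 CPM against 6.03 ± 1.27 CPM (2.52-fold, adjusted p = 0.00222). Both lost their call with spike-in scaling (adjusted p = 0.172 and 0.523). Of the exon length of pen-2, 47.8% lies opposite exons of other genes. The share of nct in the reads of these 3 genes was 63% and 67.7% in seminal vesicle and 67% and 65.9% in testis, so the tissues overlapped. Per kilobase, nct stood at 0.744 and 0.875 times aph-1 in seminal vesicle and at 0.929 and 0.823 times in testis. The catalytic subunit gene Psn was not analysed here, since its current identifier is not among those of the count tables.

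In the nucleus, the genes of the DNA-binding protein and of its coactivator moved in opposite directions. Suppressor of Hairless (Su(H); 2L, 15039488 to 15043334, plus strand), which binds the DNA of target genes, had 5.22 and 6 CPM in seminal vesicle and 13.4 and 12.6 CPM in testis. Mastermind (mam; 2R, 13991203 to 14060356, plus strand), the coactivator that joins it, had 104 and 135 CPM in seminal vesicle and 16.8 and 14.2 CPM in testis. Neither gene overlapped between tissues, with Su(H) below and mam above its testis level. The log2 fold change of Su(H) was -1.22 ± 0.19, or 2.33-fold lower, with adjusted p = 0.00131. That of mam was 2.95 ± 0.24, or 7.71-fold higher, with adjusted p = 9.7e-05. Hairless (H; 3R, 20621938 to 20628915, plus strand), the antagonist that turns Su(H) into a repressor, had 20.4 and 28.8 CPM in seminal vesicle and 32 and 26.6 CPM in testis. Its tissues overlapped, and the log2 fold change was -0.26 ± 0.22 with adjusted p = 0.313. H was called lower in seminal vesicle with library size only (-0.65, adjusted p = 0.0204), with spike-in scaling (-1.33, 0.000151) and without seminal vesicle replicate 2 (-0.53, 0.00749).

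Ratios within a library put these genes on 1 scale. Per kilobase of exon, mam stood at 6.63 and 7.46 times Su(H) in seminal vesicle and at 0.415 and 0.374 times Su(H) in testis. H stood at 1.92 and 2.36 times Su(H) in seminal vesicle and at 1.17 and 1.04 times in testis. Of the reads of mam, Su(H) and H, mam gave 80.2% and 79.4% in seminal vesicle and 26.9% and 26.5% in testis. Scaling cancels in such ratios. Of 7 other nuclear cofactor genes, 3 were higher in seminal vesicle, 2 lower and 2 not called, which is near the 42.1% higher of all genes tested. The corepressor gene CtBP, a partner of Hairless, stood at 102 ± 2.54 CPM in seminal vesicle and 29.4 ± 4.76 CPM in testis (3.46-fold, adjusted p = 0.000381, and 0.0567 with spike-in scaling). sno, a nuclear gene tied to Notch by its wing phenotype, stood at 45.8 ± 24 CPM against 263 ± 11.5 CPM in testis, 5.75-fold lower (adjusted p = 0.00188). The F-box gene ago stood at 77.1 ± 7.29 CPM against 114 ± 2.05 CPM (adjusted p = 0.0412, 0.0918 with the replicate block, and 0.156 and 0.195 without testis replicate 1 and 2).

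**Figure D3:**
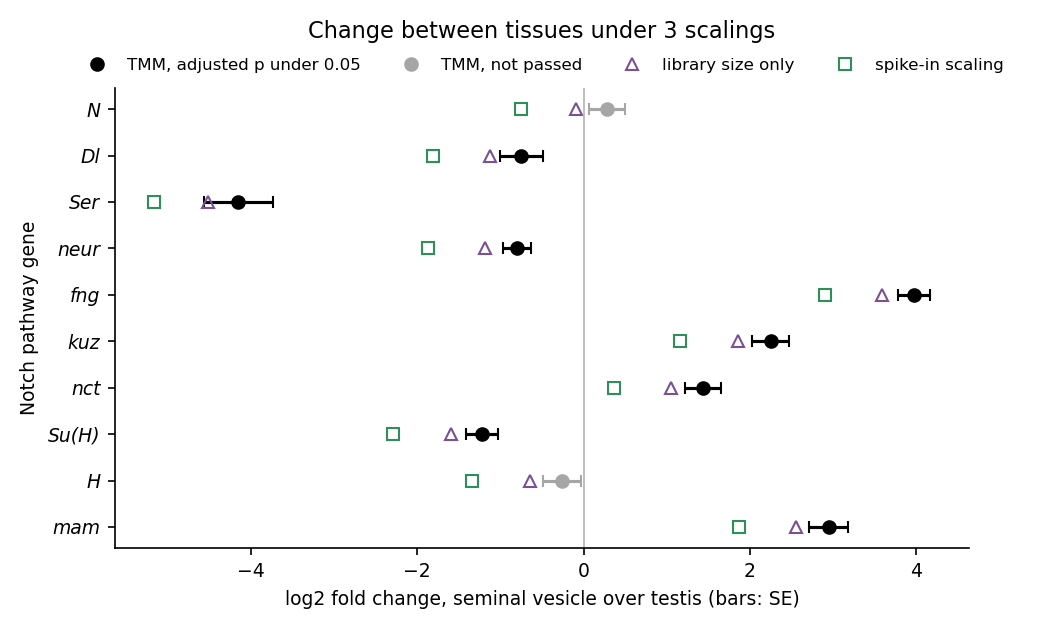
Log2 fold change, seminal vesicle over testis, of the 10 genes with TMM scaling (circles, black where adjusted p was under 0.05 and grey where not, bars for the SE), with library size only (triangles) and with scaling to spike-in RNAs (squares). N changes side of 0 between scalings, nct approaches 0 with spike-in scaling at 0.37, and the other 8 genes keep their direction.

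Scaling to the spike-in RNAs moved all genes, not these in particular. Over all genes tested, the median was -1.17 on the log2 scale with it and -0.49 with library size only, against -0.11 with TMM. Relative to that median, N lay between 0.34 and 0.44 and nct between 1.5 and 1.6 in the alternative settings that kept all 4 libraries. The 2 tissues received different spike-in pools, so this scaling and the tissue cannot be told apart.

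Among trafficking genes and regulators of the receptor, 4 of 8 tested were higher in seminal vesicle, 2 lower and 2 not called, where 42.1% of all genes tested were higher and 44.5% lower. Su(dx), a ubiquitin ligase that sends Notch to degradation, stood at 206 ± 51.4 CPM in seminal vesicle and 18.1 ± 2.31 CPM in testis (11.4-fold, adjusted p = 0.000113). Nedd4, a ligase of the same family, was lower at 109 ± 16.5 CPM against 172 ± 6.85 CPM in testis (adjusted p = 0.0413, 0.0773 with the replicate block, and 0.162 and 0.126 without testis replicate 1 and 2). Amx, a membrane protein gene whose maternal loss gives a neurogenic phenotype, stood at 14.7 ± 0.775 CPM against 0.916 ± 0.272 CPM (amx, 15.8-fold, adjusted p = 5.5e-05). The genes spdo and wry had 4 or fewer reads in every library and were not tested. Over all roles, 56 other pathway genes were listed, 53 were in the tables and 34 were tested. Of these 18 were higher, 11 lower and 5 not called, where 42.1% of all genes tested were higher and 44.5% lower, with a median log2 fold change of 0.58 beside -0.11 for all genes. With spike-in scaling 8 were higher, and without testis replicate 1 or 2 only 3 were called lower.

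**Figure D4:**
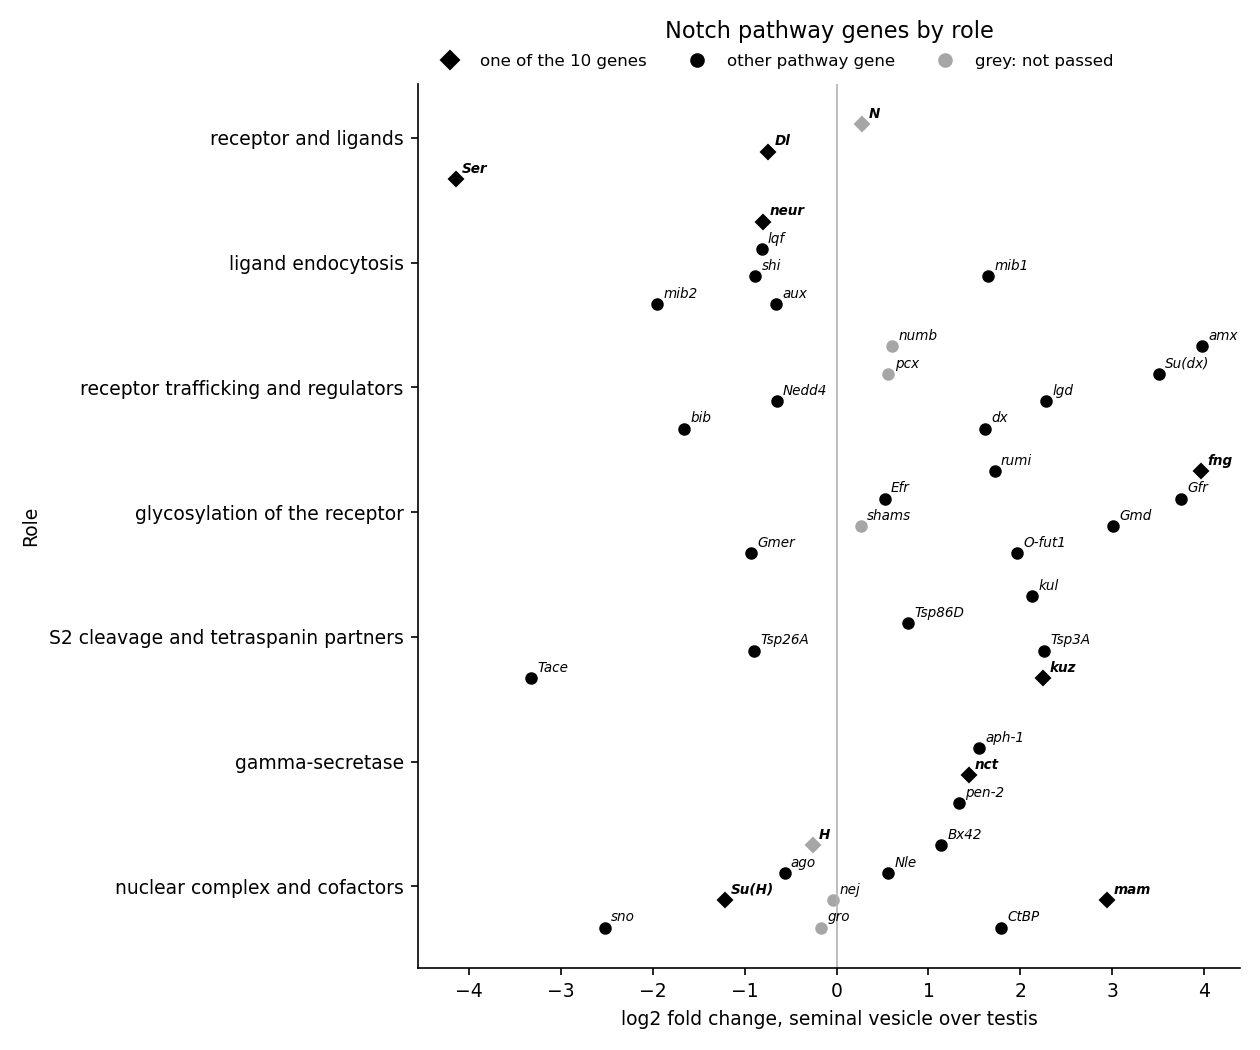
Log2 fold change, seminal vesicle over testis, of the tested Notch pathway genes by role, diamonds for the 10 genes and circles for the others, black where adjusted p was under 0.05 and grey where not; height within a role only separates labels. The gamma-secretase genes measured lie between 1.33 and 1.55, while ligand endocytosis genes other than mib1 lie below 0.

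The listed target genes were at or near the limit of detection in both tissues. Of 9 target genes in the tables, 7 Enhancer of split bHLH repressor genes with Hey and dpn, none passed the filter on low counts and the highest count was 7. Of all 17409 genes, 5672 did not pass it either. Together they had 6 and 3 reads in the seminal vesicle libraries and 19 and 22 reads in the testis libraries. In seminal vesicle 7 of the 9 had 0 reads in both libraries, and in testis 1, E(spl)m5-HLH, did. Genes with 0 reads were common in the series. Ranked by CPM per kilobase, they shared a middle rank, at percentile 11.7 and 11.6 in the seminal vesicle libraries. In the testis libraries that rank was at 9.79 and 9.45. E(spl)mbeta-HLH had 5 and 2 reads in seminal vesicle and 6 and 6 in testis. E(spl)m3-HLH had 0 reads in both seminal vesicle libraries and 7 in each testis library. Hey had 0 reads in both seminal vesicle libraries and 2 and 6 reads in the testis libraries. None of these genes was tested, and at these counts no fold is given. The 8 genes of the Bearded family in the tables, small inhibitors of Neuralized, had at most 4 reads in any library, and 4 of them had 0 in all 4. Where no read was found, a chosen limit of 3 counts stood at 0.245 and 0.321 CPM for seminal vesicle and 0.181 and 0.175 CPM for testis. Levels under that limit can go unseen at this depth, though some genes had reads below it. The target genes named singly were chosen after their values were seen.

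Levels can be compared between genes only per length of exon. In seminal vesicle the order in CPM per kilobase was nct (48.9 ± 5.46), fng (29.2 ± 2.32), mam (13.4 ± 2.43), kuz (8.91 ± 0.928), H (4.1 ± 0.991), neur (2.22 ± 0.166), Su(H) (1.9 ± 0.186), N (1.38 ± 0.0451), Dl (0.608 ± 0.116) and Ser (0.0993 ± 0.0415), as mean ± SD of 2 libraries. No neighbours in that order overlapped, and the first stood 492 times above the last. In testis the order was nct (18 ± 1.15), H (4.88 ± 0.632), Su(H) (4.41 ± 0.203), neur (3.86 ± 0.00332), kuz (1.87 ± 0.4), fng (1.86 ± 0.194), mam (1.74 ± 0.206), Ser (1.72 ± 0.477), N (1.14 ± 0.262) and Dl (1.01 ± 0.0715). There the libraries of H and Su(H), of kuz, fng, mam and Ser as neighbours, and of N and Dl overlapped, and the first stood 17.8 times above the last. Among 16804 genes ranked by CPM per kilobase, N lay at percentile 47.9 and 46.3 in seminal vesicle and 42.6 and 45.7 in testis. By the same ranking fng lay at percentile 85.9 and 85.3 in seminal vesicle and 49.8 and 48.4 in testis.

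**Figure D5:**
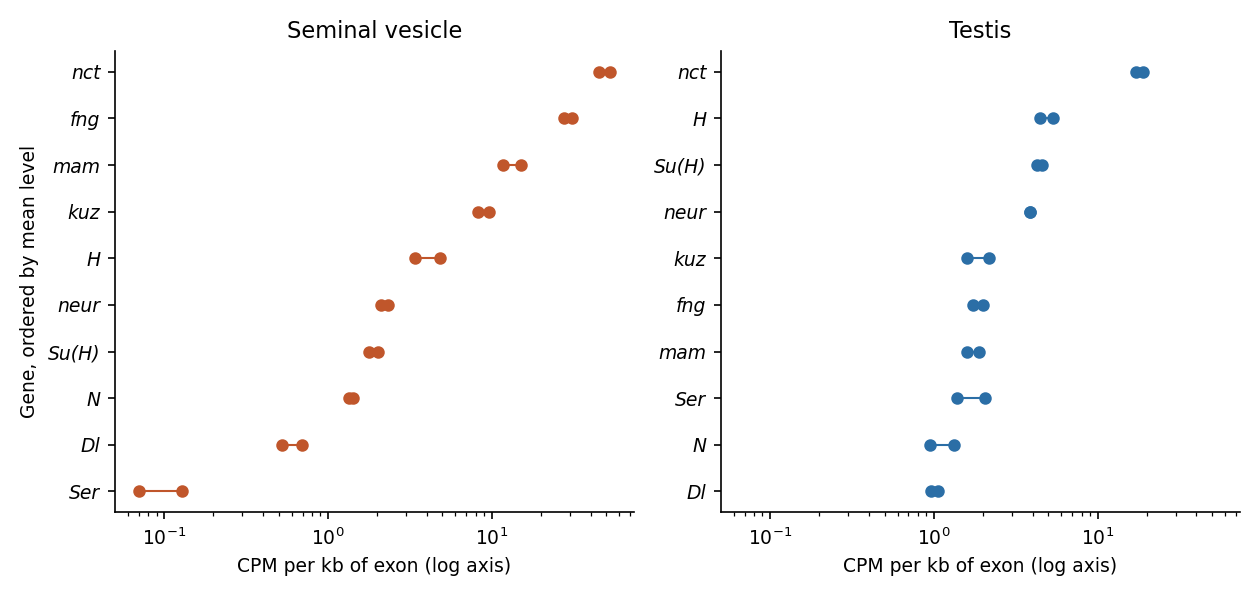
Level of the 10 genes in CPM per kilobase of exon (log axis) in seminal vesicle (left) and testis (right), ordered by mean within each tissue, with points for libraries joined by a line. The genes spread from 0.0993 to 48.9 in seminal vesicle and from 1.01 to 18 in testis.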

How the data were processed

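Reads per gene were deposited by the authors as raw counts, 1 file per library. Per the labels' protocols, a TruSeq Stranded mRNA kit was used, with spike-in RNAs from a different pool in each tissue. Per the series text, single-end reads of 50 bp were mapped to FlyBase release 6.06. Tools named in the submitters' processing notes are HTSeq 0.6.1p1, TopHat2 2.1.0 and CASAVA 1.8.2; strand and overlap settings are not given in the sources used here. At least 10 reads were counted for 73 of 126 genes enclosed by exons of the opposite strand, against 5 of 279 enclosed by exons of their own strand.

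Neither the 96 spike-in rows nor the 5 summary rows entered library sizes or tests; ambiguous reads came to 1.77% and 1.87% of gene counts in seminal vesicle and 4.07% and 4.11% in testis. Names, positions and exon lengths came from Ensembl release 115 on the same assembly. CPM per kilobase used the exon union without bases shared on the same strand. Genes were filtered with filterByExpr (minimum count 10, minimum total 15), scaled with TMM, and fitted in edgeR 4.0.16 (R 4.3.3) with its quasi-likelihood F test in robust mode at an adjusted p of 0.05; glmTreat tested changes over 2-fold. The SE is the log2 fold change over the root of F. The steps were also run on simulated counts with 200 genes changed and all others equal between tissues. That run could not check the scaling for these data, where most genes were called.

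The genes, lists, tests and alternatives were chosen with earlier results of these data known. Named genes are the 10, and in each role the 2 tested genes of greatest mean log CPM plus at most 2 called genes of greatest change. Of all entries in the lists and markers, 113 matched by symbol and 10 by synonym. Alternatives were DESeq2 1.42.0 and its size factors, library size only, spike-in scaling, 2 other filters, limma 3.58.1 voom, a replicate block, a threshold of 0.01, a fit without dominant genes and each library left out. The series text gives the 2 dissection days as the replicates, so equal numbers were taken to share a day; over genes, the replicate difference in seminal vesicle correlated at 0.07 with that in testis. Promoter motifs were not searched. P-values measure the spread between these libraries only.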

Additional observations from a re-analysis of the deposited data

How the results depend on the processing

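Of 140 values of the 10 genes under other settings, 127 kept their direction and side of the threshold, 8 lost a call, 3 gained one and 2 turned, both for N (-0.090 with library size only and -0.76 with spike-in scaling). For 18 other named genes the numbers were 225 kept, 25 lost and 2 turned of 252, the turns being Efr at -0.52 and Tsp86D at -0.29 with spike-in scaling. The 10 genes called lower numbered 2 to 5 with 1 library left out and 3 to 6 otherwise, and those called higher 4 in every fit but spike-in scaling, with 3. Of the other pathway genes, 15 to 19 were higher and 3 to 12 lower with 1 library left out; 8 were higher with spike-in scaling, and 5 lower at a threshold of 0.01. Over all genes, spike-in scaling gave 3272 higher and 6372 lower, and library size only 4395 and 5730, against 4944 and 5223 with TMM. The cause of these moves was not tested, except that spike-in scaling shifts all genes of a library alike and that a fit without 1 library has fewer samples. The replicate block gave 4 of the 10 genes higher and 4 lower, and of the other pathway genes 16 and 9; beside Nedd4, Efr and ago it changed no call of a named gene. Depth limits Ser in seminal vesicle, at 5 and 7 reads, and the target genes.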

Other observations

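All 10 genes were higher in seminal vesicle replicate 2 than in replicate 1 in TMM-normalised CPM, by 1.05-fold for N to 1.84-fold for Ser, as were 64.7% of all genes tested. In testis 8 of the 10 were lower in replicate 2, as were 51% of all genes tested, and the exceptions were N and Ser, at 1.39 and 1.49 times replicate 1. The antisense gene asRNA:CR31429, which lies opposite neur, had a log2 fold change of -6.15 ± 0.41 (edgeR adjusted p = 6.27e-05), against -0.80 for neur itself. CG10589, whose exons overlap those of fng by 22 bp on the other strand, had 6.77 and 13.6 CPM in seminal vesicle and 310 CPM in each testis library.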
